A study of Rattus norvegicus with 8 samples.

Results

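The transcripts described here encode the enzymes and regulators of cholesterol, fatty acid and sphingolipid synthesis in rat sciatic nerve. A list of 42 genes was matched by symbol to the normalized count table, and 42 of 42 had a row with reads, among 22798 genes with at least 1 read. By pathway branch, 18 genes belong to sterol synthesis, 5 to the control of sterol synthesis, 11 to fatty acid synthesis and 8 to sphingolipid synthesis. Bulk RNA-seq was carried out on 8 nerves from outbred female Sprague Dawley (Envigo) rats of 3 to 6 months. The PEG group held 3 peripheral nerve allografts (PNAs) that received the PEG-fusion protocol, in which polyethylene glycol is applied to the sutured cut ends. The negative control (NC) group held 3 PNAs sutured in without PEG. Both kinds of graft came from donors that were not tissue matched, with no immune suppression in donor or host, were washed with hypotonic saline and methylene blue, and were excised at 14 days postoperatively (PO). The unoperated (Unop) group held 2 nerves that had no surgery. Each library came from its own animal. The normalized counts of a group are listed below in the order of its replicate numbers.

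Myelin is unusually rich in cholesterol and in galactosylceramide and its sulfated form, sulfatide. A Schwann cell that makes myelin produces most of these lipids itself. Cholesterol is built from acetyl-CoA through mevalonate, farnesyl diphosphate, squalene and lanosterol. The genes of this route are switched on by the sterol regulatory element-binding proteins (SREBPs), which Scap escorts out of the endoplasmic reticulum when sterols are low and which Insig proteins hold back when sterols are plentiful. Fatty acid synthesis starts from the same acetyl-CoA and continues through elongation and desaturation. Sphingolipid synthesis joins fatty acids to a serine-derived base to make ceramide, onto which galactose and sulfate are added.

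Promoter sequence was examined as a description only, with no test. The 250 bases before the gene start were available from RefSeq (GRCr8) for 35 of 42 members. The pentamer CCAAT, the letters of the box bound by the NF-Y factor that is known to act with SREBPs, was found on either strand in 23 of these 35 promoters (65.7%) and in 12 of 15 sterol promoters (80%). Among all 33469 RefSeq promoters of the same length it was present in 34%. The sterol regulatory element form TCACNCCAC was found in 0 of the 35 promoters, against 0.974% of all promoters. Its core CACCCCAC was found only for Ebp, against 2.32% of all. The E-box CACGTG was present for Elovl5, Insig1, Sc5d and Scap (11.4%, against 5.59% of all). The Egr form GCGTGGGNG was present for Dhcr7 and Mvd (5.71%, against 1.46% of all). These matches describe letters in this window, and the lack of a match says only that the letters are not in it. Shown here are the promoters of Hmgcs1, Idi1 and Msmo1, the sterol genes with the most negative PEG against Unop fold changes among those with a promoter entry, and that of Fads2, the member that was not lower in PEG than in Unop. Capitals mark CCAAT or its reverse complement ATTGG. Coordinates are GRCr8 and each sequence runs 5′ to 3′ toward the gene start: Hmgcs1, chr2:53382054-53382303, plus strand; Idi1, chr17:66547525-66547774, minus strand; Msmo1, chr16:29746863-29747112, plus strand; Fads2, chr1:216172034-216172283, minus strand.
Hmgcs1: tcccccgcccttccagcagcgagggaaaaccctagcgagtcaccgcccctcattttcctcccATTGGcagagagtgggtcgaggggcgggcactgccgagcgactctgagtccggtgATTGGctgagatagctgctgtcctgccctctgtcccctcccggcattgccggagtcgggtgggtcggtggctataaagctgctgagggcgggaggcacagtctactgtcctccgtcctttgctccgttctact
Idi1: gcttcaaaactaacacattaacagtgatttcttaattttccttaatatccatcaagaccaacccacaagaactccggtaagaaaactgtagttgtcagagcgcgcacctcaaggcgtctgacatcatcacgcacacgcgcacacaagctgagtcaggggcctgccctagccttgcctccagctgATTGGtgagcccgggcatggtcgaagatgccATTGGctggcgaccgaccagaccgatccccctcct
Msmo1: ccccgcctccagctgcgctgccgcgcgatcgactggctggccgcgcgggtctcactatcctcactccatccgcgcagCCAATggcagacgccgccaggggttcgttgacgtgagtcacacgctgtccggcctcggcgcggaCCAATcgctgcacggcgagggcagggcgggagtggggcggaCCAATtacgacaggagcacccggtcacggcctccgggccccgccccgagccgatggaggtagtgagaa
Fads2: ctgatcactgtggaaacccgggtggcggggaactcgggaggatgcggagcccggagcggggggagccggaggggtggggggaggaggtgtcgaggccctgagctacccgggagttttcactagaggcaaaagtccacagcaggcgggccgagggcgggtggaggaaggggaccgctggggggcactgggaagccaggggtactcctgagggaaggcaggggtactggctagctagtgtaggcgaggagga
The Hmgcs1 and Idi1 stretches each hold 2 of these pentamers and the Msmo1 stretch holds 3. The Fads2 stretch holds 0, as do those of Elovl7, Ugt8 and Cyp51, which were lower in PEG than in Unop by log2 fold changes of -6.83, -4.67 and -3.20.

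The first question was how the allografts compared with intact nerve. In the PEG-fused PNAs, 41 of the 42 transcripts were downregulated relative to Unop, and in the NC PNAs 39 of 42 were. Here a transcript was called when its adjusted p was under 0.05 in limma's moderated test on log2(normalized count + 1), with the adjustment over all 16478 tested genes. Of all tested genes, 28.6% were called lower in PEG against Unop and 32.3% in NC against Unop. The count of members called higher by limma was 0 in both comparisons, and it was also 0 at an unadjusted p under 0.05 and by edgeR and DESeq2, against 29.1% and 32.2% of all tested genes called higher. The median log2 fold change over the members was -1.99 in PEG against Unop and -2.11 in NC against Unop, where the medians over all tested genes were 0.01 and 0.02. Called lower past a 2-fold difference were 30 members in PEG and 32 in NC, against 2568 and 3130 of the 16478 tested genes. These comparisons share the same 2 Unop libraries and were not compared with each other. In bulk tissue, fewer cells of a type and less RNA per cell cannot be told apart, and 11 of 12 myelinating Schwann cell markers were also lower than Unop in each graft.

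**Figure D1:**
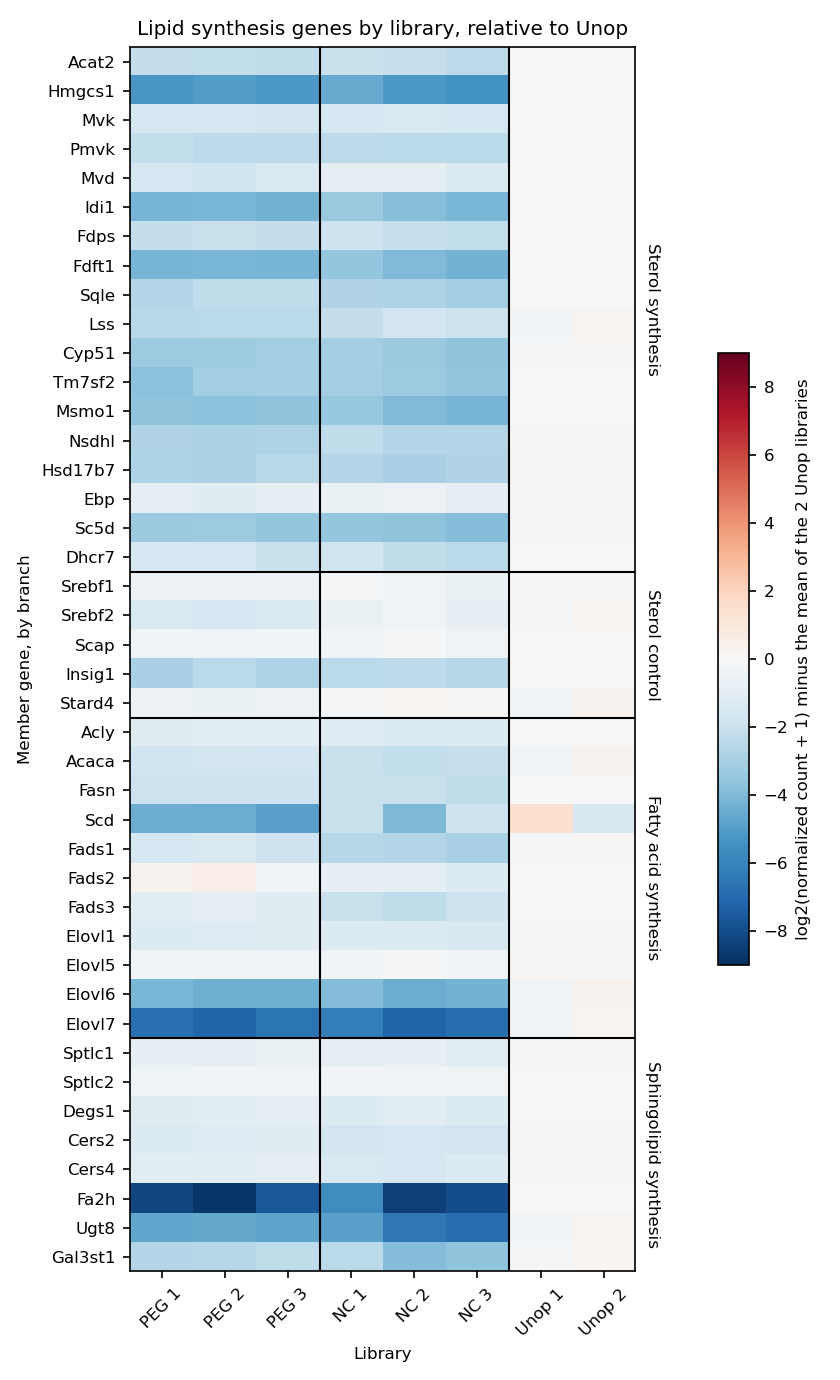
Each row is 1 of the 42 members, grouped by branch, and each column is 1 library. Colour gives log2(normalized count + 1) minus the mean of the 2 Unop libraries (blue lower, red higher). The PEG and NC columns are blue for nearly every gene, most deeply for Hmgcs1, Elovl7, Fa2h and Ugt8, while Fads2 is at or above the Unop level in 2 of 3 PEG libraries.

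By branch, sterol synthesis had the lowest median against intact nerve. In PEG against Unop, 18 of 18 sterol genes were lower (median log2 fold change -2.56), as were 5 of 5 control genes (-0.54), 10 of 11 fatty acid genes (-1.60) and 8 of 8 sphingolipid genes (-1.06). In NC against Unop, 18 of 18 sterol genes (median -2.66), 3 of 5 control genes (-0.36), 10 of 11 fatty acid genes (-2.08) and 8 of 8 sphingolipid genes (-1.52) were lower. The group mean of a sterol gene was a median of 16.8% of its Unop mean in PEG and 15.9% in NC. The summed normalized count of the 18 sterol genes was 16988, 17544 and 17114 in PEG, 20788, 17689 and 15160 in NC, and 171500 and 184520 in Unop. That sum separated intact nerve from graft without overlap, and the PEG sums lay within the range of the NC sums. The control genes summed to 7337, 7566 and 7522 in PEG, 9660, 10525 and 8492 in NC, and 17789 and 18031 in Unop, the fatty acid genes to 23362, 25506 and 23320 in PEG, 22363, 19723 and 20298 in NC, and 84852 and 65650 in Unop, and the sphingolipid genes to 16219, 17226 and 17877 in PEG, 14020, 13834 and 12487 in NC, and 78508 and 97795 in Unop. In these sums every PEG library was below every NC library for the control genes and above every NC library for the fatty acid and sphingolipid genes. The sums weigh the genes with high counts most and do not show a shift of each gene. Between PEG and NC, 3 of 5 control, 7 of 11 fatty acid and 5 of 8 sphingolipid genes were not called. Of all tested genes, 15.0% were called higher and 13.9% lower there. Sums are rounded to 5 significant digits.

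The second question was whether PEG-fused and NC PNAs differed. Of the 42 transcripts, 8 were upregulated and 4 were downregulated in PEG relative to NC, where 15.0% of all tested genes were called higher and 13.9% lower. The other 30 were not called. The upregulated members were Sqle, Acly, Fads1, Fads2, Fads3, Cers2, Cers4 and Ugt8. The downregulated members were Mvd, Lss, Srebf2 and Stard4. The median log2 fold change over the members was -0.02, against 0.00 over all tested genes. The branch medians were -0.06 for sterol synthesis, -0.25 for its control, 0.18 for fatty acid synthesis and 0.31 for sphingolipid synthesis. The 4 members past a 2-fold difference were Fads1, Fads2, Fads3 and Ugt8, all higher in PEG. Of the 16478 tested genes, 726 were called higher and 1177 lower past that difference. Over 16 alternative settings, none of them a fold threshold, the calls of Fads1, Fads3 and Srebf2 were never lost. The other 9 were lost in at least 1 setting, Acly and Ugt8 in 11 each. Leaving out single libraries moved the count of higher members between 4 (without PEG 2, PEG 3 or NC 2) and 9 (without NC 1), and the count of lower members between 1 (without PEG 1) and 3. Statements that all PEG libraries lay above or below all NC libraries describe the counts only. The share of all tested genes that separated in this way was not counted, so separation without a call is not given as a difference.

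**Figure D2:**
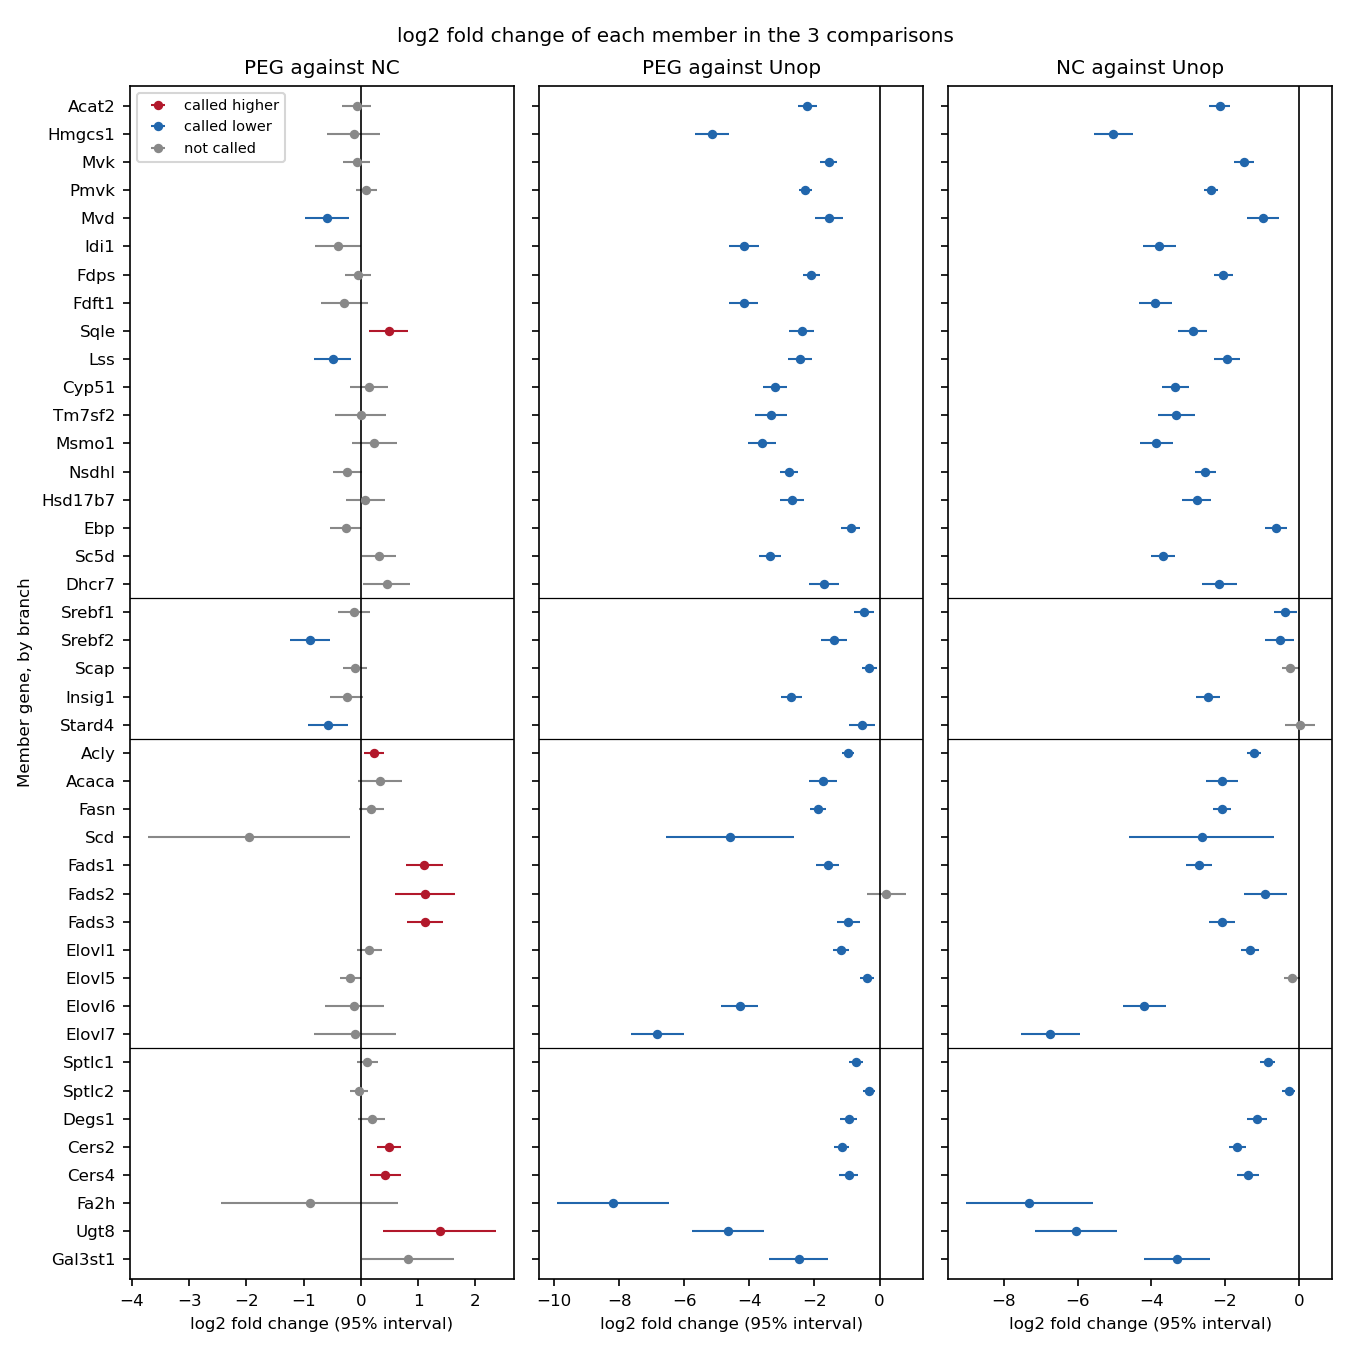
Each point is the log2 fold change of 1 member with its 95% interval, in PEG against NC, PEG against Unop and NC against Unop from left to right, with genes in pathway order and branches separated by lines. Red is called higher, blue called lower and grey not called. The left panel holds 8 red and 4 blue points, and the other panels are blue but for Fads2 in PEG against Unop and for Scap, Stard4 and Elovl5 in NC against Unop.

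The mevalonate arm of sterol synthesis carries acetyl-CoA to farnesyl diphosphate. Acat2, the thiolase at its start, had 480.1, 469 and 431 in PEG, 520.1, 513 and 424 in NC, and 2227 and 2055 in Unop. Hmgcs1, the HMG-CoA synthase, had 1614, 1899.7 and 1689 in PEG, 2687, 1755 and 1431 in NC, and 59138 and 64503 in Unop. Both Unop libraries stood far above every graft library for each of these genes. The Hmgcs1 transcript was 35.7-fold lower in PEG than in Unop (log2 fold change -5.16 ± 0.23 SE, adjusted p = 1.57e-06) and 32.7-fold lower in NC (-5.03 ± 0.23, adjusted p = 1.08e-06), the most negative values of the sterol branch. It did not differ detectably between PEG and NC (-0.13, adjusted p = 0.677). Fold changes given here and below are on the log2(count + 1) scale. Mvk, mevalonate kinase, had 384, 374 and 342 in PEG, 385, 409 and 362 in NC, and 1065 and 1098 in Unop. Pmvk, the kinase that follows, had 1109, 986 and 1004 in PEG, 990.1, 947 and 957 in NC, and 5009.7 and 5069 in Unop. Their graft libraries fell in narrow ranges, with PEG against NC values of -0.07 and 0.10 that were not called.

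Mvd, the decarboxylase that makes isopentenyl diphosphate, was the gene of this arm called between the grafts. It had 407, 349 and 456 in PEG, 676, 692 and 475 in NC, and 1158 and 1219 in Unop. The highest PEG library was below the lowest NC library, and the log2 fold change was -0.59 ± 0.17, adjusted p = 0.0314, a call lost in 5 of 16 settings, among them without PEG 1, PEG 2, NC 1 or NC 2 (log2 fold changes -0.60 to -0.49, adjusted p from 0.0735 to 0.111). Idi1, the isomerase of the next step, had 493, 534 and 481 in PEG, 884, 637 and 512 in NC, and 9065 and 9083 in Unop. Its PEG against NC value of -0.39 was not called (adjusted p = 0.129), and every PEG library but PEG 2 was below all NC libraries. Without NC 3 it was -0.58 and called lower (adjusted p = 0.03). Against Unop, Idi1 was 18-fold lower in PEG and 13.7-fold lower in NC. Fdps, farnesyl diphosphate synthase, had 2656, 2918 and 2689 in PEG, 3191, 2849.7 and 2523 in NC, and 11462 and 12051 in Unop, and PEG and NC overlapped.

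The squalene and lanosterol steps follow. Fdft1, squalene synthase, had 850.0, 877 and 834 in PEG, 1404, 998 and 805 in NC, and 14879 and 16094 in Unop, a drop of 18.1-fold in PEG and 14.8-fold in NC against Unop. Sqle, the rate-limiting epoxidase of squalene, had 742, 985 and 977 in PEG, 727, 671 and 534 in NC, and 4549 and 4882 in Unop. Every PEG library was above every NC library, and Sqle was the sterol enzyme called higher in PEG (log2 fold change 0.48 ± 0.15, adjusted p = 0.0433). The call was lost in 8 of 16 settings, among them without PEG 2, PEG 3, NC 2 or NC 3 (log2 fold changes 0.36 to 0.52, adjusted p from 0.0664 to 0.144). Lss, which closes the ring to lanosterol, had 922, 1004 and 993 in PEG, 1180.5, 1599 and 1358 in NC, and 4553 and 6112 in Unop. It moved the other way, lower in PEG in every library than in any NC library (-0.49 ± 0.14, adjusted p = 0.0333), a call lost without PEG 1, PEG 2, PEG 3, NC 2 or NC 3 (log2 fold changes -0.52 to -0.38, adjusted p from 0.0755 to 0.0968).

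From lanosterol to cholesterol, 8 enzymes were measured. Cyp51, lanosterol demethylase, had 1741, 1758 and 1837 in PEG, 1999, 1588 and 1305 in NC, and 15512 and 17323 in Unop. Tm7sf2, a sterol reductase, had 87.1, 129 and 129 in PEG, 128, 118 and 96.5 in NC, and 1141 and 1154 in Unop. Msmo1, which removes methyl groups from the ring, had 1669, 1601 and 1655 in PEG, 1885, 1282 and 1115 in NC, and 20609 and 19854 in Unop. In each of these the PEG and NC libraries overlapped, and both lay below Unop, with log2 fold changes in PEG against Unop of -3.20, -3.33 and -3.62. Nsdhl, a sterol dehydrogenase of the same demethylation, had 1136, 1049.9 and 1115 in PEG, 1521, 1205 and 1187 in NC, and 7167 and 7933 in Unop. Hsd17b7, the ketosteroid reductase that completes it, had 129, 123 and 153 in PEG, 138, 114 and 131 in NC, and 831 and 919 in Unop. Neither was called between PEG and NC (-0.24 and 0.08), although Nsdhl read lower in every PEG library than in any NC library. Ebp, the sterol isomerase, had 824, 670.3 and 838 in PEG, 935, 1003 and 856 in NC, and 1506 and 1357 in Unop, and was the sterol gene with the smallest difference from Unop (-0.89 ± 0.13 in PEG and -0.62 ± 0.13 in NC). Its PEG libraries were all below its NC libraries, with a value that was not called (-0.26 ± 0.12, adjusted p = 0.124). Sc5d, a sterol desaturase, had 1046, 1087 and 954 in PEG, 926, 868 and 694 in NC, and 9593 and 11627 in Unop. Dhcr7, the reductase of the last step, had 698, 728 and 538 in PEG, 612, 441 and 396 in NC, and 2038 and 2185 in Unop. Sc5d read higher in every PEG library than in any NC library, but neither Sc5d (0.32 ± 0.13, adjusted p = 0.098) nor Dhcr7 (0.45 ± 0.18, adjusted p = 0.0964) was called. Without NC 1, Dhcr7 and Msmo1 were called higher in PEG.

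Within the genes that control sterol synthesis, Srebf2 differed most between the grafts. Srebf2 encodes the SREBP that mainly drives sterol genes, and it had 1379, 1184 and 1439.9 in PEG, 2384, 3015 and 2076 in NC, and 3154 and 3945 in Unop. The groups did not overlap, in the order Unop, NC, PEG. Srebf2 was 1.85-fold lower in PEG than in NC (log2 fold change -0.89 ± 0.15, adjusted p = 0.00461) and 2.65-fold lower than in Unop (-1.41 ± 0.17, adjusted p = 0.000204). NC was also lower than Unop (-0.52 ± 0.17, adjusted p = 0.0276), a call lost in 6 of 15 settings, among them without NC 1 (-0.50, adjusted p = 0.0583), NC 3 (-0.40, 0.0781) or Unop 2 (-0.36, 0.19). Srebf1, which encodes the SREBP forms tied to fatty acid as well as sterol genes, had 2591, 2573 and 2462 in PEG, 3127, 2877 and 2318 in NC, and 3830.3 and 3273 in Unop. Srebf1 in PEG and NC overlapped, and its call in NC against Unop (-0.36 ± 0.13, adjusted p = 0.0411) was lost in 7 of 15 settings, among them without NC 2, NC 3 or Unop 1 (log2 fold changes -0.40 to -0.24, adjusted p from 0.0526 to 0.23). Its call in PEG against Unop was lost without Unop 1 (-0.37, adjusted p = 0.106). Scap had 1582, 1706 and 1765 in PEG, 1783, 1971 and 1659 in NC, and 2156 and 2051 in Unop, among the smallest differences of the 42 (-0.32 ± 0.10 in PEG against Unop, called, and -0.22 ± 0.10 in NC against Unop, not called, but called without NC 2 at -0.29, adjusted p = 0.037). The Scap call in PEG was lost without PEG 1 or Unop 1 (log2 fold changes -0.29 to -0.28, adjusted p from 0.079 to 0.0992).

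Insig1, itself a target of the SREBPs, was the control gene that fell most. It had 996, 1394 and 1122 in PEG, 1398, 1451 and 1289 in NC, and 7761 and 7447 in Unop, which is 15.4% of the Unop mean in PEG and 18.1% in NC. PEG and NC overlapped, with PEG against NC at -0.25 (adjusted p = 0.166), and without PEG 2 it was -0.38 and called lower (adjusted p = 0.0414). Stard4, a carrier of cholesterol between membranes, had 789, 709 and 734 in PEG, 969, 1211 and 1149.9 in NC, and 888 and 1315 in Unop. It was lower in every PEG library than in any NC library (-0.57 ± 0.15, adjusted p = 0.0264), and NC lay within the Unop range (0.03 in NC against Unop, adjusted p = 0.878). Its call in PEG against NC was lost in 6 of 16 settings, among them without PEG 1, PEG 2, PEG 3, NC 2 or NC 3 (log2 fold changes -0.62 to -0.51, adjusted p from 0.0526 to 0.0893). Its call in PEG against Unop (-0.54 ± 0.17, adjusted p = 0.0261) was lost without PEG 2, PEG 3 or Unop 2 (log2 fold changes -0.53 to -0.26, adjusted p from 0.0638 to 0.197).

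Fatty acid synthesis begins with Acly, which cleaves citrate to acetyl-CoA, Acaca, which makes malonyl-CoA, and Fasn, the synthase. Acly had 4554, 4988 and 4961 in PEG, 4269, 4108 and 3975 in NC, and 9516 and 9481 in Unop. Acaca had 903, 1012 and 957 in PEG, 815, 683 and 778 in NC, and 2531 and 4062 in Unop. Fasn had 2557, 2762 and 2687 in PEG, 2513, 2515 and 2045 in NC, and 9965 and 9873 in Unop. For all 3 genes each Unop library was above each graft library, with PEG against Unop log2 fold changes of -0.98 ± 0.08, -1.74 ± 0.19 and -1.89 ± 0.11. Each also read higher in every PEG library than in any NC library, by a small amount. Of these, Acly was called (0.23 ± 0.07, adjusted p = 0.0476) and Acaca (0.34, adjusted p = 0.161) and Fasn (0.18, adjusted p = 0.185) were not. The Acly call was lost when any 1 PEG or NC library was left out (log2 fold changes 0.21 to 0.27, adjusted p from 0.0579 to 0.153) and by edgeR.

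The fatty acid desaturases Fads1, Fads2 and Fads3 all differed between PEG and NC. Fads1 and Fads2 introduce the double bonds of polyunsaturated fatty acids, and Fads3 acts on sphingoid bases. In RefSeq (GRCr8) gene order the genes are neighbours on chromosome 1, in the order Fads3, Fads2, Fads1 with 0 protein-coding genes between them. Fads1 had 3766, 4505 and 3234 in PEG, 1920.4, 1848 and 1538 in NC, and 10764 and 12297 in Unop. Fads2 had 1606, 1937 and 1024 in PEG, 770.3, 734 and 552 in NC, and 1220.2 and 1321 in Unop. Fads3 had 939.9, 1145 and 875 in PEG, 464, 389 and 512 in NC, and 1976 and 1839 in Unop. In each gene all PEG libraries were above all NC libraries. The PEG to NC ratios were 2.16 for Fads1 (log2 fold change 1.11 ± 0.14, adjusted p = 0.00137), 2.17 for Fads2 (1.12 ± 0.23, adjusted p = 0.00888) and 2.17 for Fads3 (1.11 ± 0.14, adjusted p = 0.00131). Relative to Unop, the genes separated. Fads1 and Fads3 were lower in PEG (-1.60 ± 0.16 and -0.96 ± 0.15) and lower still in NC (-2.71 ± 0.16 and -2.07 ± 0.15). Fads2 in PEG overlapped Unop, with a log2 fold change of 0.21 ± 0.26 (adjusted p = 0.501), and was lower in NC than in Unop (-0.90 ± 0.26, adjusted p = 0.0138), a call lost without Unop 1 or Unop 2 (log2 fold changes -0.96 to -0.85, adjusted p from 0.0536 to 0.0787). It was the one member with a higher mean in PEG than in Unop, and with the replicate number as a block it was called higher there (adjusted p = 0.0414), although the numbers were not taken to pair the samples.

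**Figure D3:**
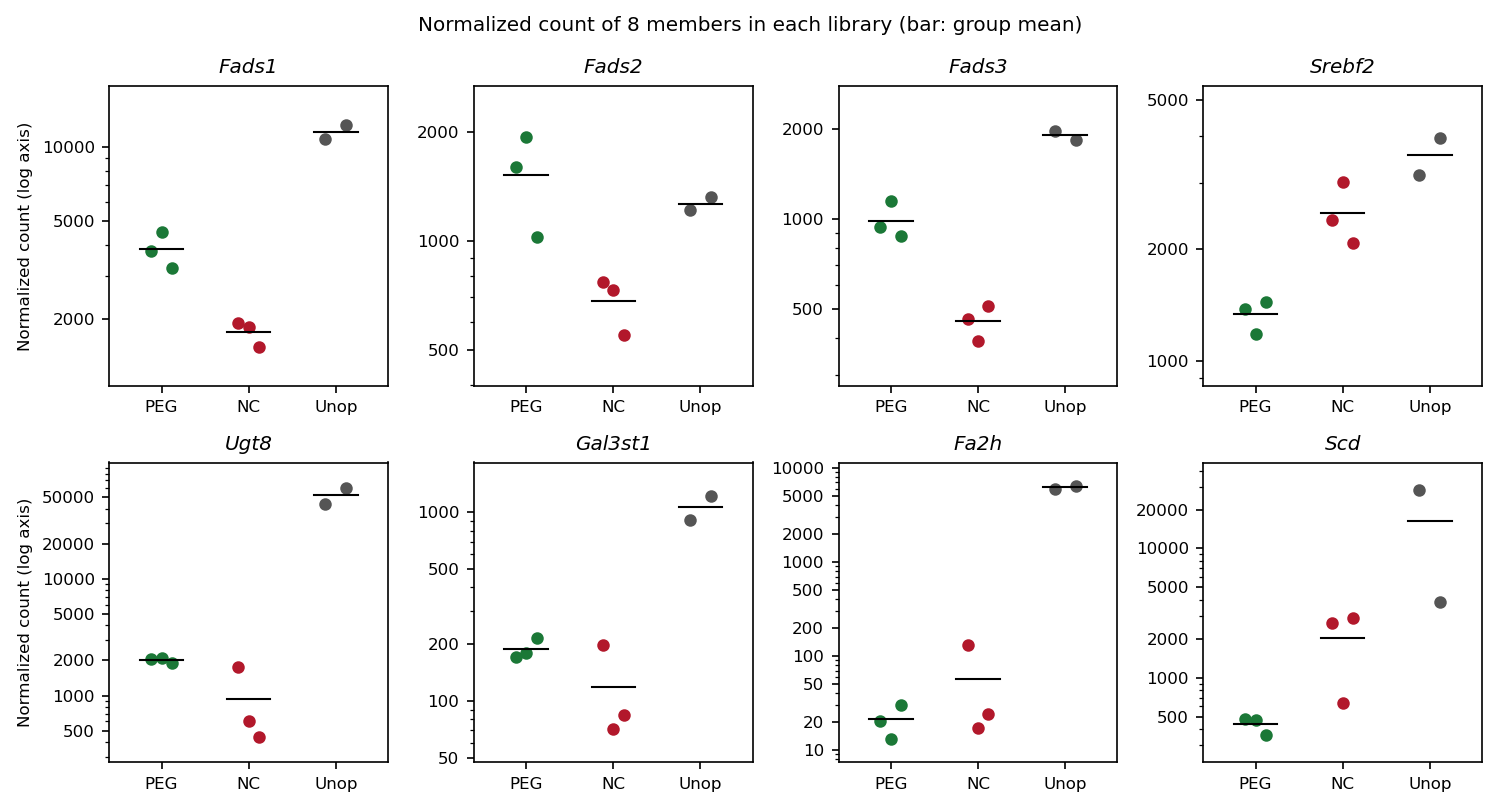
Each panel plots the normalized count of 1 member on a log axis, with 1 point per library (PEG green, NC red, Unop grey) and a bar at the group mean. Fads1, Fads2 and Fads3 lie higher in all PEG than in all NC libraries, Srebf2 lies lower in PEG, and in Ugt8, Gal3st1 and Fa2h 1 NC library (NC 1) stands above the other 2.

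The elongases ranged from small to deep differences from intact nerve. Elovl1, which extends saturated very long chains, had 5674, 5986 and 6439 in PEG, 5849.6, 5562 and 4927 in NC, and 12878 and 14376 in Unop. Elovl5, which extends polyunsaturated chains, had 2782, 2622 and 2695 in PEG, 3004, 3176 and 3004 in NC, and 3791 and 3221 in Unop, and in NC it did not differ detectably from Unop (-0.19, adjusted p = 0.101), although without Unop 2 it was called lower (-0.31, adjusted p = 0.0227). In PEG, Elovl5 was called lower (-0.37 ± 0.09, adjusted p = 0.00855), and the call was lost without Unop 1 (-0.25, adjusted p = 0.0507). Elovl6, which takes palmitate to stearate length, had 70.4, 55.2 and 56.3 in PEG, 79.5, 54.9 and 63.7 in NC, and 984 and 1481 in Unop. Elovl7, another very long chain elongase, had 29.7, 20.6 and 32.8 in PEG, 42.9, 20.4 and 28 in NC, and 2664 and 3862 in Unop. Elovl6 was 19.7-fold lower in PEG and 18.2-fold lower in NC than in Unop, and Elovl7 was 114-fold and 107-fold lower. The 4 elongases were not called between PEG and NC (values 0.15, -0.18, -0.11 and -0.10).

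Scd, a stearoyl-CoA desaturase that makes oleate, had the widest spread of any member in Unop. It had 479, 473 and 358 in PEG, 2635, 633 and 2876 in NC, and 28563 and 3837 in Unop. The Unop libraries differed 7.44-fold and the NC libraries up to 4.55-fold, while the PEG libraries were all below them. Scd was lower in PEG than in Unop (-4.59 ± 0.86, adjusted p = 0.00206), with values from -3.14 without Unop 1 to -6.04 without Unop 2. Its value in NC against Unop (-2.63 ± 0.86, adjusted p = 0.0258) went from -1.19 without Unop 1 to -4.08 without Unop 2, with the call lost without Unop 1, without NC 2 (-1.93) and with only these 2 groups in the fit. PEG against NC was not called (-1.96 ± 0.77, adjusted p = 0.0914) although it was called lower by DESeq2 (-2.23, adjusted p = 0.0297), without NC 2 (-2.67, 0.0288) and with only these 2 groups in the fit (-1.96, 0.0419). The PEG against NC value was -0.55 when NC 1 and NC 3 were left out. Those were the NC libraries with the highest skeletal muscle marker sums (731060 and 265920, against 12100 in NC 2). The 10 adipocyte markers summed to 6512, 4421 and 5271 in PEG, 9566, 9119 and 10647 in NC, and 127530 and 81277 in Unop. Unop 1 was highest both in this sum and in Scd, but the NC libraries differed far less in this sum than in Scd. Of these markers, 10 were lower than Unop in each graft and 6 were lower in PEG than in NC. The shares of all tested genes called lower were 28.6% in PEG against Unop, 32.3% in NC against Unop and 13.9% in PEG against NC. Adipoq, adiponectin, had 238, 264 and 288 in PEG, 967, 408 and 434 in NC, and 35084 and 18102 in Unop, and the lipid droplet gene Plin1 had 12, 7.48 and 46 in PEG, 265, 49.5 and 57.9 in NC, and 6366 and 3691 in Unop. The part of adipocytes or of muscle in the Scd values was not tested. How reads shared between Scd and its close relatives Scd2 and Scd4 were counted is not given in the sources used here.

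Sphingolipid synthesis starts at serine palmitoyltransferase, whose subunits Sptlc1 and Sptlc2 were lower than Unop in both grafts. Sptlc1 had 1622, 1596 and 1684 in PEG, 1525, 1579 and 1419 in NC, and 2548 and 2852 in Unop, higher in every PEG library than in any NC library. Sptlc2 had 1810.2, 1947 and 1828 in PEG, 1944, 1883 and 1896 in NC, and 2260.2 and 2364 in Unop, the smallest called difference from Unop of any member in PEG (-0.31 ± 0.08, adjusted p = 0.00916) and in NC (-0.28 ± 0.08, adjusted p = 0.0141, a call lost without Unop 2 (-0.24, adjusted p = 0.054)). Degs1, the desaturase that yields ceramide, had 4569, 4939.9 and 5667 in PEG, 4165, 4899 and 4228 in NC, and 9493 and 9947 in Unop. These 3 genes were not called between PEG and NC. The ceramide synthases Cers2, which uses very long chains, and Cers4 were lower than Unop in both grafts and higher in PEG than in NC. Cers2 had 5522, 5963 and 6028 in PEG, 3947, 4461 and 3996 in NC, and 12177 and 14032 in Unop. Cers4 had 446, 483 and 503 in PEG, 351, 319.5 and 396 in NC, and 870.4 and 976 in Unop. The PEG and NC libraries did not overlap in either gene. The log2 fold changes in PEG against NC were 0.50 ± 0.09, adjusted p = 0.00552 for Cers2 and 0.43 ± 0.12, adjusted p = 0.0289 for Cers4. The Cers2 call was lost when NC 1 and NC 3 were both left out, with NC 2 as the lone NC library (adjusted p = 0.0826), and the Cers4 call was lost without PEG 1, PEG 2, PEG 3, NC 1 or NC 2 (log2 fold changes 0.35 to 0.48, adjusted p from 0.0507 to 0.0998).

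Of the sphingolipid genes, the enzymes that make the lipids characteristic of myelin fell furthest against Unop. Fa2h, which hydroxylates the fatty acids of myelin sphingolipids, had 20.4, 13.1 and 30 in PEG, 130.5, 17.2 and 24.1 in NC, and 6004 and 6439 in Unop. It was 295-fold lower in PEG than in Unop (log2 fold change -8.21 ± 0.75, adjusted p = 4.12e-05) and 159-fold lower in NC (-7.31 ± 0.75, adjusted p = 5.44e-05), the most negative value of the 42 in each comparison. Without NC 1 the Fa2h value in NC against Unop was -8.18, and by edgeR with TMM factors it was -6.72. By group means, NC was at 0.92% of Unop for Fa2h and at 0.93% for Elovl7. Ugt8, the galactosyltransferase that makes galactosylceramide, had 2058, 2103 and 1920.2 in PEG, 1759, 605 and 444 in NC, and 44242 and 59962 in Unop. Gal3st1, which sulfates it to sulfatide, had 171, 180.4 and 217 in PEG, 198, 71 and 84.9 in NC, and 915 and 1224 in Unop. Against Unop, Ugt8 was 25.4-fold lower in PEG and 66.1-fold lower in NC (log2 fold change -6.05, and -6.63 without NC 1), and Gal3st1 was 5.59-fold and 9.88-fold lower. The PEG libraries were close to each other in Ugt8 and Gal3st1, whereas NC 1 lay above NC 2 and NC 3 and near the PEG level.

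Ugt8 was called higher in PEG than in NC (1.38 ± 0.43, adjusted p = 0.045), all PEG libraries being above all NC libraries. That call was lost by edgeR (adjusted p = 0.100 with TMM factors) and DESeq2 (0.131), with adjusted p between 0.000817 and 0.131 over the alternatives. Of single libraries, it was lost without PEG 1, PEG 2, PEG 3, NC 2 or NC 3 (log2 fold changes 0.97 to 1.42, adjusted p from 0.0977 to 0.121). Without NC 1 the Ugt8 difference was 1.97 (adjusted p = 0.000817). Gal3st1 was not called (0.82 ± 0.35, adjusted p = 0.116), and without NC 1 it was 1.27 and called (adjusted p = 0.00414). Fa2h was not called (-0.90 ± 0.67, adjusted p = 0.348) and its value was -0.02 without NC 1.

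Other genes of these pathways were read from further lists. For the counts here and below, 29.1% of all tested genes were called higher and 28.6% lower in PEG against Unop. In NC against Unop these shares were 32.2% and 32.3%, and in PEG against NC 15.0% and 13.9%. Of 7 tested genes of other sterol synthesis and its control, 6 were lower in PEG against Unop and 1 was higher, and in PEG against NC 2 were lower. In NC against Unop, 5 were lower and 1 was higher. Insig2, the second Insig gene, had 359.6, 425 and 352 in PEG, 536, 588 and 706 in NC, and 690.1 and 517 in Unop. It was lower in PEG than in NC (-0.68 ± 0.16, adjusted p = 0.0145), a call lost without PEG 3 (-0.63, adjusted p = 0.0541). The SREBP protease gene Mbtps2 was the one called higher against Unop (0.58 ± 0.09, adjusted p = 0.000892 in PEG and 0.55 ± 0.09, adjusted p = 0.00102 in NC).

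Cholesterol export, uptake and storage included genes that rose in the grafts. Of 13 tested, 7 were higher and 3 lower in PEG against Unop, 9 were higher and 2 lower in NC against Unop, and 4 were higher and 3 lower in PEG against NC. Abca1, the pump that loads cholesterol onto apolipoproteins, had 34345, 33502 and 32185 in PEG, 10997, 15560 and 15882 in NC, and 2428 and 2165 in Unop. It was 2.39-fold higher in PEG than in NC (log2 fold change 1.26 ± 0.14, adjusted p = 0.00103), and the 3 groups did not overlap. Apoe, the lipoprotein that carries cholesterol in nerve, had 672272, 569109 and 609317 in PEG, 517938, 712062 and 622453 in NC, and 115567 and 80919 in Unop, higher than Unop in both grafts (2.67 ± 0.32 and 2.66 ± 0.32) with no detectable difference between them. Of the liver X receptor genes that sense sterols, Nr1h3 was lower than Unop in both grafts (-0.61 ± 0.11 and -0.75 ± 0.11). The other liver X receptor gene Nr1h2 (-0.40 ± 0.09, adjusted p = 0.0108) and the sterol hydroxylase gene Cyp27a1 (-0.70 ± 0.16, adjusted p = 0.0141) were lower in PEG than in NC. Abca1 and Apoe are also expressed by macrophages, whose 10 markers summed to 415970, 370090 and 416930 in PEG, 565190, 796960 and 785490 in NC, and 42269 and 28137 in Unop. Of these markers, 10 were higher than Unop in each graft, and in PEG against NC 2 were higher and 5 lower. Cd68, a lysosomal macrophage marker, had 20030, 20455 and 22451 in PEG, 14060.1, 18968 and 16383 in NC, and 1529 and 787 in Unop. Their part in these values was not tested.

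Of 15 tested genes of other fatty acid synthesis, 12 were lower in each graft against Unop, and 5 were higher and 3 lower in PEG against NC. Scd2, a second stearoyl-CoA desaturase, had 67966, 73819 and 62399.7 in PEG, 29328, 30179 and 24885 in NC, and 298209 and 386791 in Unop. It was 2.42-fold higher in PEG than in NC (1.28 ± 0.16, adjusted p = 0.00144), with no overlap. Hacd4, a dehydratase gene of the elongation family, was higher in PEG as well (0.89 ± 0.11, adjusted p = 0.00147), and Hacd2 was lower (-0.53 ± 0.11, adjusted p = 0.009). Acss2, which makes acetyl-CoA from acetate, was lower than Unop in both grafts (-2.61 ± 0.11 and -2.28 ± 0.11).

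Of 12 tested genes of other sphingolipid synthesis, 4 were higher and 5 lower in PEG against Unop, 4 were higher and 7 lower in NC against Unop, and 3 were higher and 1 lower in PEG against NC. The counts of higher genes against Unop were near the shares of all tested genes (29.1% in PEG and 32.2% in NC). Ugcg, which makes glucosylceramide, had 3205, 3029 and 2919 in PEG, 3819, 5738 and 5197 in NC, and 1595 and 1283 in Unop. St3gal5, which makes the ganglioside GM3, had 2163, 2629.8 and 2941 in PEG, 1572, 1652 and 1649 in NC, and 675 and 489 in Unop. Both were higher than Unop in each graft, but Ugcg was lower in PEG than in NC (-0.67 ± 0.15, adjusted p = 0.0144, a call lost without PEG 2 or PEG 3 (log2 fold changes -0.66 to -0.64, adjusted p from 0.0501 to 0.0515)) and St3gal5 was higher (0.66 ± 0.15, adjusted p = 0.0128). Kdsr, the reductase that follows serine palmitoyltransferase, was higher in PEG than in NC (0.46 ± 0.10, adjusted p = 0.0125), and Sptssa, a small subunit of that transferase, was lower than Unop in both grafts (-1.67 ± 0.10 and -1.85 ± 0.10).

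Of 10 genes of sphingolipid breakdown, 5 were higher and 5 lower in PEG against Unop, 4 were higher and 6 lower in NC against Unop, and 3 were higher in PEG against NC. Galc, the lysosomal enzyme that degrades galactosylceramide, had 1060.3, 1242 and 1112 in PEG, 519, 566 and 689.7 in NC, and 756 and 954 in Unop. It was higher in PEG than in NC (0.95 ± 0.14, adjusted p = 0.00238) and lower in NC than in Unop (-0.53 ± 0.16, adjusted p = 0.0166), the latter call being lost without Unop 2 (-0.36, adjusted p = 0.127). Sphk1, sphingosine kinase, had 405, 636 and 547 in PEG, 234, 265 and 265 in NC, and 62.2 and 52.5 in Unop, higher in PEG than in NC by 1.03 ± 0.19 on the log2 scale. The ceramidase gene Acer3 was lower than Unop in both grafts (-2.01 ± 0.08 and -1.92 ± 0.08).

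Cell type markers also differed between the groups. For the counts that follow, 15.0% of all tested genes were called higher and 13.9% lower in PEG against NC. The 12 markers of myelinating Schwann cells summed to 66919, 69797 and 73495 in PEG, 93725, 35543 and 28252 in NC, and 2884200 and 3467500 in Unop. Of these, 12 of 12 were not called between PEG and NC, with 7 positive and 5 negative values from -1.21 to 1.28. Without NC 1, Mbp went from 0.75 to 1.44 and was called higher in PEG (adjusted p = 0.00859). Prx went from -0.78 to 0.04 without NC 1 and was not called. Mbp, myelin basic protein, had 9033, 8335 and 7432 in PEG, 12599, 4296 and 2152 in NC, and 708519 and 855747 in Unop, and Prx, periaxin, had 439, 363 and 784 in PEG, 2665, 515 and 458 in NC, and 114029 and 154247 in Unop. NC 1, the NC library with the most Fa2h and Ugt8, was also the NC library with the most of this marker sum. The 3 Schwann lineage markers summed to 28297, 29001 and 28111 in PEG, 15850, 13611 and 11724 in NC, and 178390 and 166380 in Unop, and 3 of 3 were higher in PEG than in NC, among them Sox10 (0.83 ± 0.14, adjusted p = 0.00394). The 6 repair Schwann cell markers summed to 24021, 30471 and 24766 in PEG, 11696, 12863 and 11134 in NC, and 4876 and 3718 in Unop, and 4 of 6 were higher in PEG than in NC. The 7 T cell markers summed to 4961, 1751 and 4658 in PEG, 20210, 37933 and 25354 in NC, and 394 and 206 in Unop, and 7 of 7 were lower in PEG than in NC, among them Cd3e (-3.53 ± 0.56, adjusted p = 0.00323). Of the 6 fibroblast markers, 3 were higher in PEG than in NC, and their sums were 274400, 388890 and 271790 in PEG, 152640, 188380 and 222780 in NC, and 343410 and 249190 in Unop. Of 3 tested endothelial markers, 1 was lower in PEG than in NC, and these 3 summed to 9641, 7118 and 8098 in PEG, 8787, 6739.7 and 8168 in NC, and 11782 and 11539 in Unop. The 6 cell cycle markers summed to 13023, 14863 and 14634 in PEG, 12501, 13686 and 11654 in NC, and 716 and 622 in Unop. The part of these cell types in the values of the lipid synthesis genes was not tested.

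**Figure D4:**
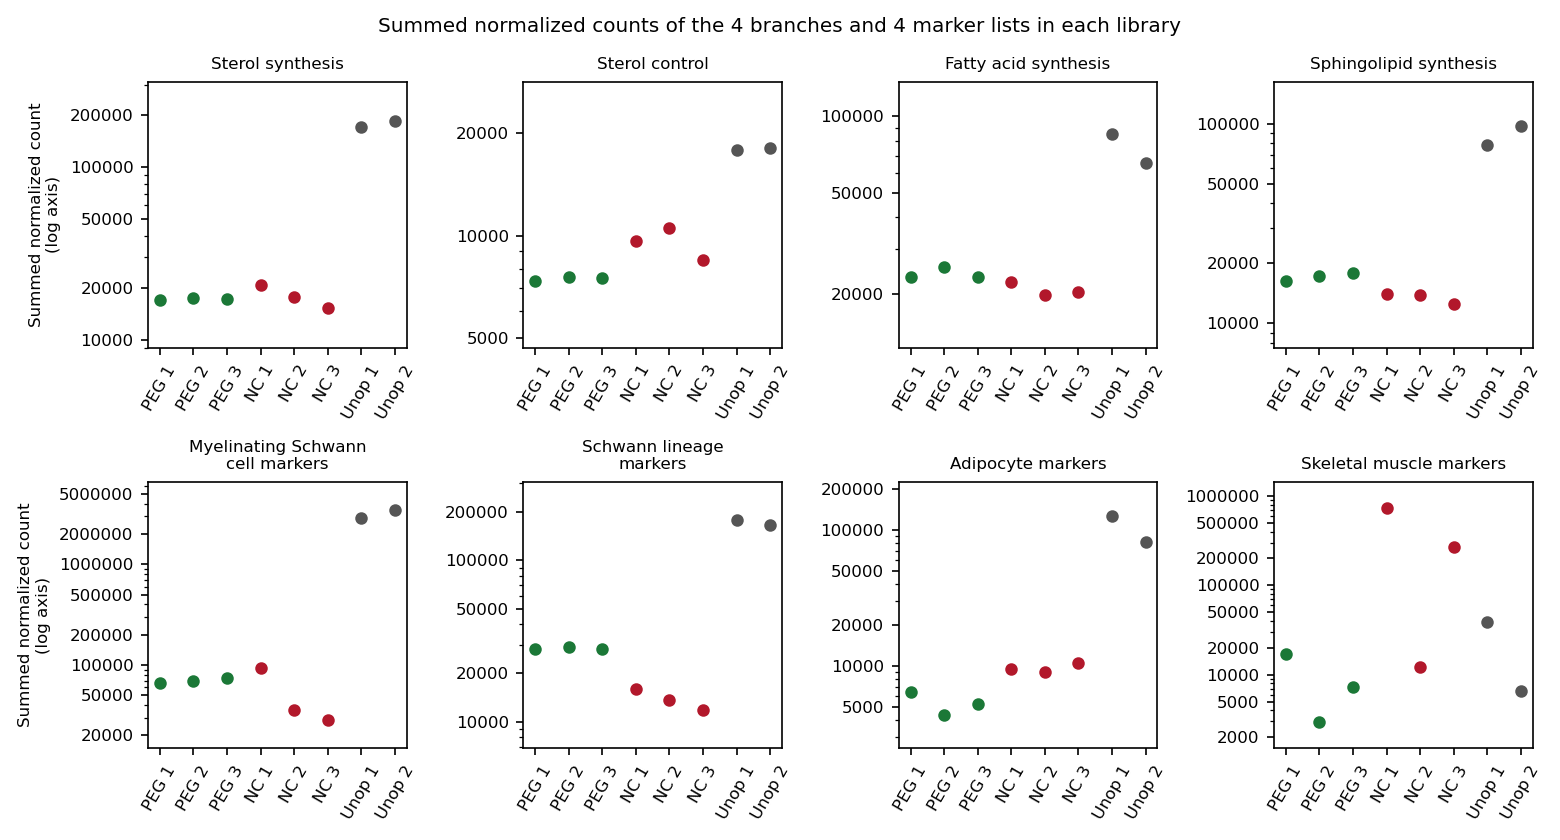
Each point is 1 library (PEG green, NC red, Unop grey) and each panel gives the summed normalized count of a gene list on a log axis, for the 4 branches (top) and 4 marker lists (bottom). Every branch and the Schwann cell and adipocyte lists are highest in Unop, NC 1 has the highest myelinating Schwann cell sum of the graft libraries, and the skeletal muscle sum is highest in NC 1 and NC 3.

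Skeletal muscle markers differed widely between libraries. The study states that muscle adhering to NC PNAs could not be fully trimmed. The sum of 6 tested muscle markers was 17181, 2953 and 7289.8 in PEG, 731060, 12100 and 265920 in NC, and 39338 and 6565 in Unop. Acta1, skeletal actin, had 6522, 1033 and 2673 in PEG, 202480, 3635 and 76780.2 in NC, and 8945 and 1759.8 in Unop. The muscle sum was highest in NC 1 and NC 3. Of the 6 markers, 1 was called lower in PEG than in NC, where 13.9% of all tested genes were. Against Unop, 0 of 6 were called in either graft. The source of these transcripts was not tested. With NC 1 and NC 3 left out, so that NC was the single library NC 2, 5 members were higher and 3 lower in PEG than in NC, and 35 were lower in NC than in Unop. The spread in that fit came from the PEG and Unop libraries alone, and NC 2 was assumed to vary like them, so the p-values say nothing of the spread within NC. The PEG against NC values there were 1.00 for Fads2, against 1.12 with all libraries, and -1.18 for Srebf2, against -0.89. In that fit the Fads2 call was lost and the Srebf2 call was kept. This left-out pair was chosen after the values were seen.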

How the data were processed

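Poly-A RNA-seq of 8 sciatic nerve libraries (3 PEG, 3 NC and 2 Unop, each 1 animal) was analysed. According to the labels and the study's methods, reads were made from stranded libraries, aligned to Rnor_6.0 with Tophat2 and counted per gene with HTSeq-count; versions and the strand setting are not given in the sources used here. The deposited values are counts that the authors divided by DESeq2 median-of-ratios size factors, a normalized signal per gene that allows comparison of libraries but not of genes of different length. Whole reads were recovered from 100% of the values (tolerance 0.001), giving 32472925 to 39959620 reads on genes per library. Per-library files hold the same values, and the authors' comparison files (fold changes and p-values) were not used. 

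A filter kept 16478 genes that reached 10 normalized counts in 2 or more libraries, among them 42 of 42 members. limma 3.58.1 (trend, empirical Bayes) was fitted to log2(normalized count + 1) over all 8 libraries without covariates, for 3 comparisons, with Benjamini-Hochberg adjustment over all tested genes and two-sided adjusted p under 0.05 called. Alternatives were edgeR 4.0.16 and DESeq2 1.42.0 on the recovered reads, TMM rescaling, a pseudocount of 8, filters, fewer libraries, the replicate number as a block, and the study's added fold threshold (log2 fold change past 1). The code of the fits was run on simulated counts with the same dispersion for every gene and large changes only. That run does not bear on single calls here. Members and lists were chosen with earlier results of these data known. Named were all members, the called gene with the smallest adjusted p per direction, comparison and pathway list, Abca1, Apoe, and markers (Mbp, Prx, Sox10, Adipoq, Plin1, Cd68, Cd3e, Acta1); a few further genes that this rule names are not reported here. Motifs were searched on both strands of RefSeq GRCr8 promoters, matched by symbol; the motifs can overlap.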

Additional observations from a re-analysis of the deposited data

How the results depend on the processing

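Setting aside the study's fold threshold, the alternatives numbered 14 in PEG against Unop, 15 in NC against Unop and 16 in PEG against NC. Under all of these, 37 of 41, 34 of 39 and 3 of 12 called members stayed called, in that order. With the fold threshold, 30 members were lower in PEG against Unop and 32 in NC against Unop. No called member changed direction. The members higher in PEG against NC numbered 5 with no filter on low values, 5 with the replicate block, 5 without both muscle-rich NC libraries and 4 with the fold threshold of the study, and 4 to 9 when single libraries were left out. The members lower in PEG against NC numbered 0 with that fold threshold (limma; 5 at an unadjusted p under 0.05 with no fold threshold, and 4 by edgeR and 5 by DESeq2) and 1 to 3 when single libraries were left out. Members higher in PEG against Unop numbered 1 (Fads2) with the replicate block. In the other cases counts stayed within 1.5 times the main value, with 38 to 40 members lower in PEG against Unop and 36 to 38 lower in NC against Unop when single libraries were left out. The causes were not tested.

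Replicate numbers were not taken to pair the samples, because the labels do not say that they mark a shared batch. Deviations of same-numbered PEG and NC libraries correlated at 0.11, 0.11 and -0.05, and those of different-numbered ones at -0.16 to 0.10. Those of same-numbered PEG and Unop libraries correlated at 0.15 and 0.14 and of NC and Unop libraries at 0.15 and 0.16, but with 2 pairs each. Different-numbered PEG and Unop libraries correlated at -0.15 to 0.0034, and NC and Unop libraries at -0.16 to 0.0359. Whether the numbers mark a shared factor was not tested. With the replicate block, 5 members were higher and 3 lower in PEG against NC, 40 were lower in PEG against Unop and 37 lower in NC against Unop.

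The values that changed sign were all of results that were not called. Most were near 0, but Acta1 (3.27 in NC against Unop and -0.60 in PEG against Unop), Fa2h (-0.90) and Prx (-0.78, both in PEG against NC) were not. In PEG against NC, Tm7sf2 was 0.0205 by edgeR with TMM factors, 0.0082 by edgeR with median-of-ratios factors, 0.0078 by DESeq2 and 0.0081 by limma after TMM rescaling, and Apoe was -0.0014 by edgeR with median-of-ratios factors and DESeq2. Insig2 in NC against Unop was -0.0075 with the replicate block. Without both muscle-rich NC libraries, PEG against NC was 0.13 for Elovl6, 0.39 for Elovl7, 0.21 for Fa2h and -0.21 for Apoe, and NC against Unop was -0.0209 for Insig2 and -0.13 for Acta1. Leaving out single libraries gave ranges in PEG against NC of -0.33 to 0.13 (Hmgcs1), -0.13 to 0.0377 (Fdps), -0.0028 to 0.30 (Cyp51), -0.12 to 0.18 (Tm7sf2), -0.0127 to 0.14 (Hsd17b7), -0.24 to 0.0273 (Elovl6), -0.34 to 0.18 (Elovl7), -0.11 to 0.12 (Apoe) and -1.23 to 0.0412 (Prx), in NC against Unop of -0.25 to 0.32 (Stard4) and -0.19 to 0.23 (Insig2), and in PEG against Unop of -1.77 to 0.57 (Acta1).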
